A study of Mus musculus with 16 samples.

Results

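G-MDSCs and M-MDSCs of tumor-bearing *Nlrp3*-/- mice were compared with each other across all genes. The comparison used 8 of the 16 libraries of the series, chosen by their labels: 4 of sorted G-MDSCs and 4 of sorted M-MDSCs, in which replicates 1 to 4 of both subsets came from the same 4 mice. The labels give the strain of every mouse as C57BL/6, and per the study's methods the WT mice were C57BL/6J and the *Nlrp3*-/- line was kept on a C57BL/6 background. All mice bore subcutaneous tumors of B16.F10, a murine melanoma line that carries an intact *Nlrp3* gene, so that NLRP3 was missing from the cells of the host and not from the tumor. In the *Nlrp3*-/- line an EGFP cassette interrupts the *Nlrp3* gene in every cell, and the 8 WT libraries of the series, which were used here for the genotype comparison alone, came from tumor-bearing mice with the gene intact. M-MDSCs were gated as CD11b high Ly6C+ Ly6G- and G-MDSCs as CD11b high Ly6C- Ly6G+ spleen cells and each library came from 1 mouse. The labels of the libraries name neither an age nor a day of sort, which the study's methods state for its mice and experiments in general.

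MDSCs are myeloid cells that accumulate in tumor-bearing hosts and restrain T cells. M-MDSCs share surface antigens with monocytes, cells that enter tissues along CCR2 ligands and become macrophages, whereas G-MDSCs share them with neutrophils, short-lived cells that form a succession of granules in the bone marrow and enter tissues along CXCR2 ligands. NLRP3 is a cytosolic sensor that, with the adaptor ASC (*Pycard*) and caspase-1, forms an inflammasome in which pro-IL-1β and pro-IL-18 are cut into their secreted forms.

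The libraries were made by QuantSeq, which reads the 3′ end of polyadenylated transcripts, so that levels were compared between libraries and not between genes. They held 3639044 to 6079866 counts, and levels are given as CPM, counts per 1000000 counts of the library after TMM scaling, in replicate order 1 to 4. A differentially expressed gene (DEG) had an FDR below 0.05 in edgeR's quasi-likelihood test and a fold change above 1.5, and the log2 fold changes are G-MDSC over M-MDSC with their standard error. The 20 most abundant genes took 27.9% to 29.8% of the counts of a G-MDSC library and 15.2% to 21.1% of those of an M-MDSC library, the 45S pre-rRNA symbol took 5.6% to 13.5%, and fewer genes were detected in G-MDSCs (11541 to 12074) than in M-MDSCs (12325 to 13000). Libraries of the same subset correlated at 0.913 to 0.961 over log2 CPM and those of different subsets at 0.694 to 0.751.

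The targeted gene was low in all 8 libraries. *Nlrp3* (chr11:59541568-59566956) had 0.771, 1.96, 0.872 and 0.562 CPM in the M-MDSC libraries and 13.7, 11.3, 6.9 and 5.38 CPM in the G-MDSC libraries, and the G-MDSC level was the higher in all 4 mice (log2 fold change 3.16 ± 0.55, FDR = 0.000251). In WT libraries, on a scale set over all 16, it had 40.7 to 88.9 CPM in M-MDSCs and 252 to 331 CPM in G-MDSCs. QuantSeq counts the 3′ end of the transcript, outside the inserted cassette, so that these counts do not check the coding sequence. Of the antigens of the sort, *Ly6c2*, which encodes Ly6C2, had 1441, 1096, 1667 and 1539 CPM in the M-MDSC libraries and 289.6, 219, 277 and 267 CPM in the G-MDSC libraries (log2 fold change −2.45 ± 0.17, FDR = 4.48e-08). Its near-identical neighbour *Ly6c1*, with which reads can be shared, had 2.44 to 4.92 CPM in M-MDSCs and 0.246 to 3.07 CPM in G-MDSCs (FDR = 0.426). *Itgam*, which encodes CD11b, was detected in all 8 libraries at 106 to 150.2 CPM in M-MDSCs and 255 to 336 CPM in G-MDSCs (log2 fold change 1.25 ± 0.16, FDR = 2.09e-05). *Ly6g* was not among the symbols of the files and is not analysed here.

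Of 24421 symbols, 10071 passed the filter on low counts and were tested. G-MDSCs had higher levels of 2383 genes (23.7% of those tested) and lower levels of 2758 (27.4%). These shares are the ones to set beside the counts of the gene lists below. A difference of at least 4-fold was called for 735 genes that were higher (7.3%) and 851 that were lower (8.45%). The 4 libraries of a subset lay wholly above those of the other for 5142 genes (51.1%), and the median size of the log2 fold change among DEGs was 1.46. Scaling bears on this balance: with library size as the only scaling the median log2 fold change of all genes moved from −0.12 to −0.83, and the DEGs were 1146 higher and 5034 lower. Among the genes named here, the calls of *Alox5ap*, *C1qa*, *Ccr7*, *Cd177*, *Cd3d*, *Emb*, *Fcgr3*, *H2-D1*, *Itgam*, *Mdh2*, *Mefv*, *Ms4a1*, *Ncf4* and *Wdfy4*, all higher in G-MDSCs, did not pass with that scaling. Fewer cells of a type and less RNA per cell cannot be told apart in bulk RNA.

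**Figure D1:**
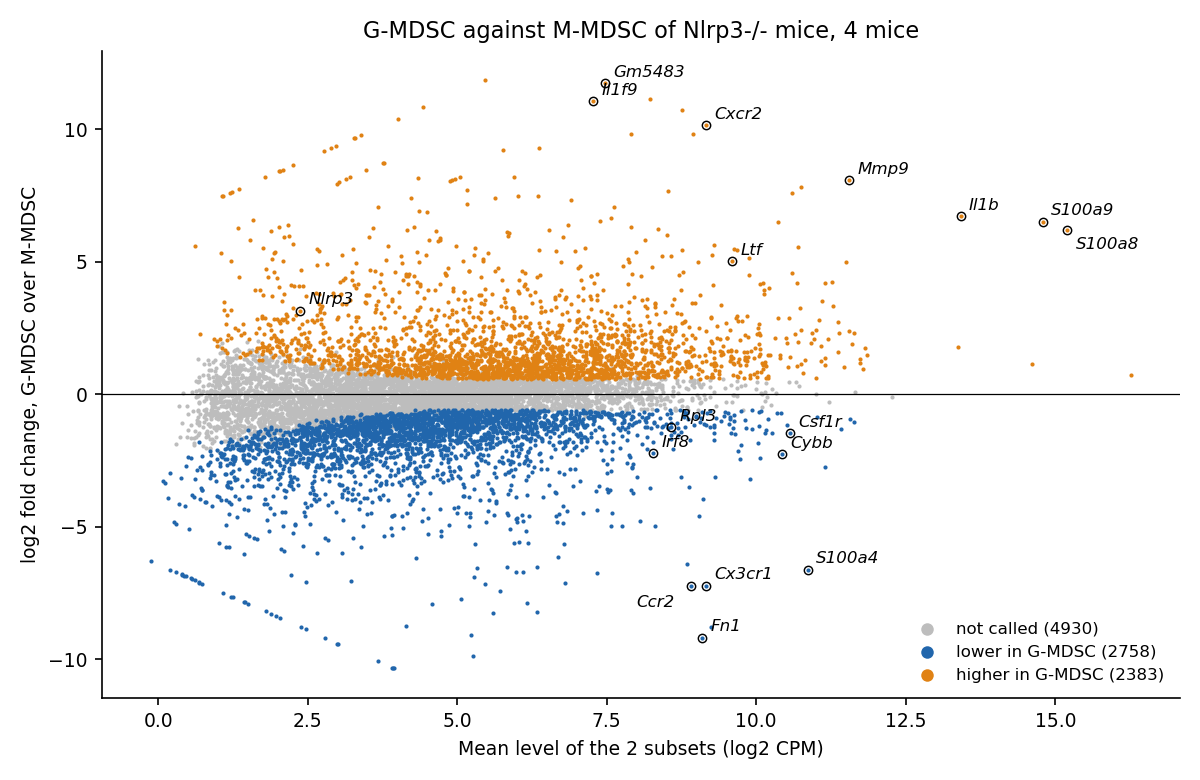
Log2 fold change (G-MDSC over M-MDSC, *Nlrp3*-/- mice) of each of the 10071 tested genes against its mean level (log2 CPM), with the DEGs coloured and some named genes labelled. The 2383 higher genes (orange) and 2758 lower genes (blue) spread over all levels, and *S100a8*, *S100a9* and *Il1b* stand high in both level and fold. With library size as the only scaling the median of all genes would lie 0.71 lower.

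The rule for named genes took, in each direction, the 12 largest fold changes among DEGs without overlap and with at least 100 CPM in the higher subset. Higher in G-MDSCs by this rule were *Gm5483*, *Gm10872*, *Il1f9*, *Asprv1*, *Cxcr2*, *H2-Q10*, *Stfa2l1*, *Sycp2*, *Ifit1bl2*, *Ceacam10*, *Mmp9* and *Hdc*, with log2 fold changes from 11.74 down to 7.84. Higher in M-MDSCs were *Fn1*, *F13a1*, *Vcan*, *Apba1*, *Ldlrad3*, *Ccr2*, *Cx3cr1*, *Ptpro*, *Tppp3*, *Ms4a6d*, *Fam129b* and *S100a4*, with log2 fold changes from −9.19 to −6.62. *Cxcr2* (chr1:74153989-74161246), the receptor by which neutrophils follow CXCL1 and CXCL2, had 1.16, 0.891, 0.218 and 1.41 CPM in the M-MDSC libraries and 1555, 1220, 980.4 and 833 CPM in the G-MDSC libraries (log2 fold change 10.16 ± 0.36, FDR = 8.64e-11). *Ccr2* (chr9:124101950-124113557), the receptor for CCL2 by which monocytes leave the bone marrow, had 1193, 829.6, 865 and 917 CPM in the M-MDSC libraries and 4.42, 7.13, 8.32 and 4.87 CPM in the G-MDSC libraries (log2 fold change −7.25 ± 0.25, FDR = 8.64e-11). In every mouse each receptor was below 10 CPM in one subset and at 829.6 CPM or more in the other.

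*Hdc*, which makes histamine, had 10.5, 14.3, 14.6 and 19.8 CPM in the M-MDSC libraries and 2966, 3161, 3338 and 4169 CPM in the G-MDSC libraries (log2 fold change 7.84 ± 0.25, FDR = 6.85e-11). *Asprv1*, an aspartic protease of neutrophils and skin, had 0, 1.25, 0.218 and 0.562 CPM in the M-MDSC libraries and 769, 846, 799 and 1040.3 CPM in the G-MDSC libraries (log2 fold change 10.74 ± 0.42, FDR = 2.2e-10). *Fn1* (chr1:71585520-71653200), which encodes fibronectin, had 1376, 736, 1245 and 991 CPM in the M-MDSC libraries and 2.09, 0.984, 0.203 and 4.36 CPM in the G-MDSC libraries (log2 fold change −9.19 ± 0.47, FDR = 2.29e-09). The subsets did not overlap in these genes, as the rule required, nor in *F13a1*, the A chain of coagulation factor XIII. *F13a1* had 1489, 866, 1038 and 1456 CPM in the M-MDSC libraries and 2.09, 4.43, 0.811 and 3.84 CPM in the G-MDSC libraries (log2 fold change −8.79 ± 0.39, FDR = 5.24e-10). *Vcan*, the matrix proteoglycan versican, had 136 to 183 CPM in M-MDSCs and 0 to 1.22 CPM in G-MDSCs (log2 fold change −8.21 ± 0.43, FDR = 2.74e-09). *Tppp3*, a tubulin polymerization factor, had 284 to 373 CPM in M-MDSCs and 0 to 6.15 CPM in G-MDSCs, and *Ptpro*, a receptor phosphatase, had 178 to 283 CPM in M-MDSCs and 0 to 4.66 CPM in G-MDSCs. The annotated spans of *Cx3cr1*, *Apba1*, *Ptpro* and *S100a4* overlap other genes on the same strand, and *H2-Q10* and *Ifit1bl2* belong to families of near-identical genes, so that reads of these genes may be shared. *Gm10872* had no match in the annotation and is given by its symbol alone.

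**Figure D2:**
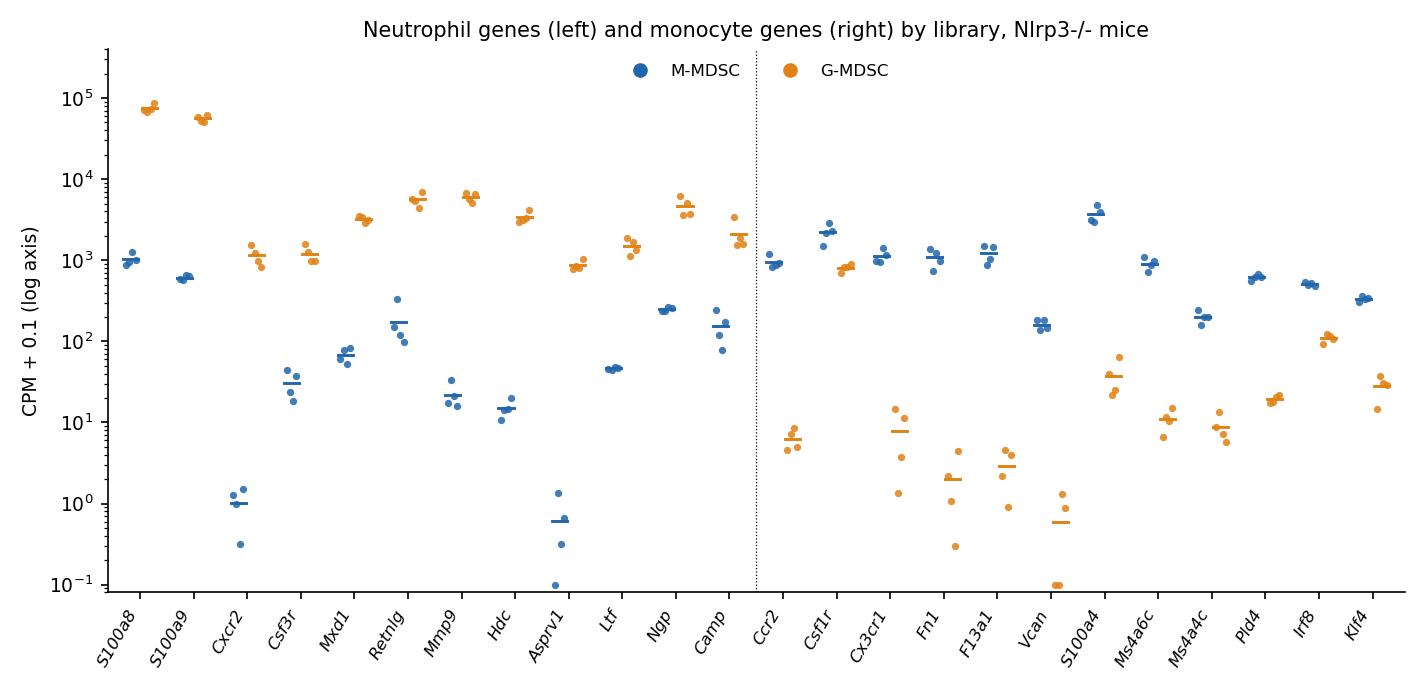
Level in each of the 8 *Nlrp3*-/- libraries (CPM + 0.1 on a log axis, 1 point per mouse) of 12 neutrophil and 12 monocyte genes, with M-MDSCs in blue, G-MDSCs in orange and a bar at each mean. The 24 genes were drawn from those in which the subsets do not overlap, as in 51.1% of all genes tested. *Mpeg1*, which overlapped, is not drawn. *Cxcr2* lies between 833 and 1555 CPM in G-MDSCs and *Ccr2* between 829.6 and 1193 CPM in M-MDSCs.

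The list of neutrophil identity genes was higher in G-MDSCs almost throughout. Of 36 tested members 33 were higher, 32 of them at least 4-fold, and the median log2 fold change was 5.59, against −0.12 over all genes tested. *Csf3r*, the receptor for G-CSF, had 44, 23.4, 18.3 and 36.8 CPM in the M-MDSC libraries and 1567, 1253, 979.8 and 976 CPM in the G-MDSC libraries (log2 fold change 5.27 ± 0.30, FDR = 4.6e-09). *S100a8* and *S100a9*, the chains of calprotectin, together took 9.18% to 11% of all counts in a G-MDSC library and 0.192% to 0.241% in an M-MDSC library, with log2 fold changes of 6.19 ± 0.20 and 6.52 ± 0.18. *Mxd1*, a MYC antagonist of differentiating cells, had 53 to 82.9 CPM in M-MDSCs and 2902 to 3472 CPM in G-MDSCs. *G0s2*, an inhibitor of lipolysis, had 7.33, 3.74, 0.218 and 2.67 CPM in the M-MDSC libraries and 619.8, 386, 152 and 341 CPM in the G-MDSC libraries (log2 fold change 6.65 ± 0.57, FDR = 2.96e-07), with mouse 1 the highest and mouse 3 the lowest in both subsets. *Retnlg*, which encodes a resistin-like protein of neutrophils, had 99.1 to 329.6 CPM in M-MDSCs and 4374 to 6928 CPM in G-MDSCs. *Pglyrp1*, a peptidoglycan recognition protein, had 11.1 to 18.8 CPM in M-MDSCs and 267 to 348 CPM in G-MDSCs. *Cd177*, a surface glycoprotein of neutrophils, had a small difference, at 55.8 to 91.4 CPM in M-MDSCs and 106 to 138 CPM in G-MDSCs (log2 fold change 0.79 ± 0.18, FDR = 0.00212).

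Monocyte identity genes were lower in G-MDSCs for 21 of 29 tested, 19 of them at least 4-fold, with a median log2 fold change of −3.18. *Csf1r*, the receptor for M-CSF, had 1516, 2139, 2914 and 2313 CPM in the M-MDSC libraries and 705, 814, 823 and 888 CPM in the G-MDSC libraries (log2 fold change −1.46 ± 0.19, FDR = 1.89e-05), so that it remained above 700 CPM in every G-MDSC library. *Cx3cr1*, the fractalkine receptor, had 990, 955, 1428 and 1161 CPM in the M-MDSC libraries and 14.4, 1.23, 3.65 and 11.3 CPM in the G-MDSC libraries (log2 fold change −7.22 ± 0.50, FDR = 3.66e-08). The MS4A family genes *Ms4a6c*, *Ms4a4c* and *Ms4a6d* were all lower, with log2 fold changes of −6.40 ± 0.26, −4.53 ± 0.26 and −6.72 ± 0.48. *Pld4*, a lysosomal exonuclease, had 549 to 674 CPM in M-MDSCs and 17.5 to 21.5 CPM in G-MDSCs (log2 fold change −4.99 ± 0.17, FDR = 8.64e-11). *Plac8* and *Lyz2* were lower too, but their M-MDSC libraries spread widely and mouse 1 was the highest in both subsets. *Plac8* had 2506, 471, 329 and 1266 CPM in the M-MDSC libraries and 211, 149, 79.5 and 83.3 CPM in the G-MDSC libraries (log2 fold change −3.13 ± 0.55, FDR = 0.000256), and *Lyz2*, which encodes lysozyme and has a near-identical neighbour in *Lyz1*, had 8517, 1404, 3495 and 2344 CPM in the M-MDSC libraries and 1150.1, 436, 353 and 443 CPM in the G-MDSC libraries (log2 fold change −2.73 ± 0.50, FDR = 0.000403). *Mpeg1*, the pore-forming perforin-2, overlapped between the subsets, at 945, 322, 278 and 583 CPM in the M-MDSC libraries and 549, 377, 311 and 295 CPM in the G-MDSC libraries (FDR = 0.241). *Emb*, a cell adhesion protein, was the single member that was higher in G-MDSCs (log2 fold change 1.04 ± 0.19, FDR = 0.000429), and the blocked fit called 2.

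Granule genes are given by the stage at which neutrophils make them, and a relation of stage to direction was not tested. Genes of the primary granules, made by promyelocytes, were lower in G-MDSCs for 6 of 10 tested and higher for 3. The summed level of this list was 215 to 284 CPM in M-MDSCs and 452 to 641 CPM in G-MDSCs. The protease *Prtn3* had 41.5, 40.1, 60.2 and 36 CPM in the M-MDSC libraries and 1.63, 1.23, 0.608 and 1.02 CPM in the G-MDSC libraries (log2 fold change −5.29 ± 0.34, FDR = 1.7e-08). *Elane*, neutrophil elastase, had 13.1, 18.4, 17.4 and 7.73 CPM in the M-MDSC libraries and 2.79, 0, 0 and 0.512 CPM in the G-MDSC libraries (log2 fold change −4.07 ± 0.78, FDR = 0.000567). *Mpo*, myeloperoxidase, had 22.9, 27.5, 52.3 and 15.9 CPM in the M-MDSC libraries and 2.09, 0, 0 and 3.07 CPM in the G-MDSC libraries (log2 fold change −4.54 ± 0.72, FDR = 0.000112). All M-MDSC libraries lay above all G-MDSC libraries for these 3 genes, and *Ctsg*, cathepsin G, was lower as well (log2 fold change −3.85 ± 0.83, FDR = 0.0014). The members that were higher were *Prss57*, a serine protease (log2 fold change 3.41 ± 0.45, FDR = 1.95e-05), *Cd63*, a granule membrane protein (log2 fold change 3.95 ± 0.18, FDR = 7.88e-10), and *Serpinb1a*, an elastase inhibitor (log2 fold change 1.36 ± 0.19, FDR = 4.59e-05).

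Genes of the secondary granules, made by myelocytes and metamyelocytes, were higher in G-MDSCs for 9 of 12 and lower for 2, with a median log2 fold change of 2.43. *Ltf*, lactoferrin, had 45.9, 44.7, 48 and 46.9 CPM in the M-MDSC libraries and 1895, 1142, 1674 and 1326 CPM in the G-MDSC libraries (log2 fold change 5.02 ± 0.20, FDR = 2.57e-10). *Ngp*, neutrophilic granule protein, had 236, 235, 264 and 257 CPM in the M-MDSC libraries and 6277, 3578, 5111 and 3749 CPM in the G-MDSC libraries (log2 fold change 4.24 ± 0.21, FDR = 1.54e-09). *Camp*, the cathelicidin precursor, had 244, 118, 78.7 and 173 CPM in the M-MDSC libraries and 3398, 1523, 1890.2 and 1586 CPM in the G-MDSC libraries (log2 fold change 3.77 ± 0.35, FDR = 7.42e-07). In all of these, and in *Lcn2*, a siderophore-binding lipocalin with 43.6 to 60.2 CPM in M-MDSCs and 1543 to 2260.4 CPM in G-MDSCs (log2 fold change 5.13 ± 0.20, FDR = 2.2e-10), mouse 1 was the highest of the G-MDSC libraries. The lower members were *Lyz2*, which monocytes also make, and *Chil3*, a chitinase-like protein with 827 to 2504 CPM in M-MDSCs and 344 to 667 CPM in G-MDSCs (log2 fold change −1.85 ± 0.30, FDR = 0.000135).

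The tertiary and secretory granule genes were higher for all 9 that were tested, or for 5 of them with library size alone. *Mmp9*, gelatinase B, had 17.1, 33.5, 21.1 and 16 CPM in the M-MDSC libraries and 6663, 5693, 5117 and 6473 CPM in the G-MDSC libraries (log2 fold change 8.10 ± 0.29, FDR = 8.64e-11). *Mmp8*, neutrophil collagenase, had 114 to 242 CPM in M-MDSCs and 898 to 1344 CPM in G-MDSCs (log2 fold change 2.56 ± 0.23, FDR = 4.16e-07). *Adam8*, a membrane protease, had 26.8 to 41.9 CPM in M-MDSCs and 831 to 1282 CPM in G-MDSCs (log2 fold change 4.98 ± 0.22, FDR = 5.24e-10), and *Mmp25*, a membrane-anchored metalloproteinase, was higher as well (log2 fold change 5.47 ± 0.64, FDR = 6.7e-06). *Arg1*, which human neutrophils keep in such granules, had at most 2 counts in a library.

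Promoters of granule genes are shown because C/EBP factors and PU.1, an ETS factor, are known regulators of them. Each window, from RefSeq on GRCm38.p6, holds 250 bases before and 50 after the start of the gene. A C/EBP motif, searched as TTNNGCAA on both strands, was found in 10.8% of all 32851 promoters. It was in 3 of 10 promoters of primary granule genes and in 5 of 13 of secondary granule genes. The core of an ETS site, searched as GAGGAA on both strands, was found in 28.3% of all promoters, in 9 of 10 promoters of primary granule genes and in 5 of 13 of secondary granule genes. Over all DEGs, GAGGAA stood in 29.4% of promoters of higher genes and 28.1% of those of lower genes. The C/EBP motif stood in 9.26% and 8.92%. In the identity lists GAGGAA was in 18 of 29 promoters of neutrophil genes and 10 of 28 of monocyte genes. A match describes letters and not a bound factor, and no motif was related to the levels by a test. The promoters of *Ltf* (chr9:111019042-111019341, plus strand), *Ngp* (chr9:110419558-110419857, plus strand) and *Lcn2* (chr2:32387690-32387989, minus strand), genes that were higher in G-MDSCs, are printed with the C/EBP motif in capitals. It begins 75 bases before the start in *Ltf*, 138 and 11 bases before it in *Ngp*, and 216 bases before it in *Lcn2*. The window of *Camp*, another gene of this granule, does not hold these letters. GAGGAA, which is not in capitals in these windows, has 1 match on either strand in *Ltf*, 1 in *Lcn2* and 0 in *Ngp*.
Ltf: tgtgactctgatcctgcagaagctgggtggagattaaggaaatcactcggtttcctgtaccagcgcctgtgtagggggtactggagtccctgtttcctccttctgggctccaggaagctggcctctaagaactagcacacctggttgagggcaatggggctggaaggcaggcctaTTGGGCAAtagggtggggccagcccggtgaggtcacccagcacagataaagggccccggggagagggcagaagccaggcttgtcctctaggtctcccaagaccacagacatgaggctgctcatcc
Ngp: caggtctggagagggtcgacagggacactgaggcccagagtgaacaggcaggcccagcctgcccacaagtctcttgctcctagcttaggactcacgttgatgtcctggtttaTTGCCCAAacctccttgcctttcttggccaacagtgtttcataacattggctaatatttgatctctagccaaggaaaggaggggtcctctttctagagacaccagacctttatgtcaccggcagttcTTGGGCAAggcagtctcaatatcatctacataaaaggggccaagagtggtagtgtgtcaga
Lcn2: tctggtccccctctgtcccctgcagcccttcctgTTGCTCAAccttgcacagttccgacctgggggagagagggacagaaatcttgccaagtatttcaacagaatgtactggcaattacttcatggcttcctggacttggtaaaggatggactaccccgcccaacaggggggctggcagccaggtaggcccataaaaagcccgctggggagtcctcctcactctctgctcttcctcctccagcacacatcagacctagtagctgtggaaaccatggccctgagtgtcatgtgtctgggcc
The promoters of *Mpo* (chr11:87793534-87793833, plus strand), *Elane* (chr10:79886062-79886361, plus strand) and *Prtn3* (chr10:79879417-79879716, plus strand), genes that were lower in G-MDSCs, are printed with GAGGAA in capitals. It begins 247 and 224 bases before the start in *Mpo*, 85 bases before it in *Elane* and 95 bases before it in *Prtn3*.
Mpo: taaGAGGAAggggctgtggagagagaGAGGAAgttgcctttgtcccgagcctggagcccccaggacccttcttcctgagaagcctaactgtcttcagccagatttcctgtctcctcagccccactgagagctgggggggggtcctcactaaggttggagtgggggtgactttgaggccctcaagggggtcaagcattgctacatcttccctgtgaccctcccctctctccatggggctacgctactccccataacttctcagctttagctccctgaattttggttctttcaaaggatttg
Elane: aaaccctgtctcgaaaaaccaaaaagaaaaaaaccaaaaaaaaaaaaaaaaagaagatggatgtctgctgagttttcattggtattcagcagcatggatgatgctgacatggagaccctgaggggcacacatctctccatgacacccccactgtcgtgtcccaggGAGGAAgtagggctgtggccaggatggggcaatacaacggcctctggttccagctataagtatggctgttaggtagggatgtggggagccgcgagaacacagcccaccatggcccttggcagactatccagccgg
Prtn3: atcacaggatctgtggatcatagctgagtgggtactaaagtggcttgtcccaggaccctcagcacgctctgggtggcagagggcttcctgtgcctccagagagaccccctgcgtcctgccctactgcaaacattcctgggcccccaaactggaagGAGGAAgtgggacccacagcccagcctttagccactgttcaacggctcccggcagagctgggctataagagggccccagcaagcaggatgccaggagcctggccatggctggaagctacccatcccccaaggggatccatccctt

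S100 genes lay in both directions, while the called protease inhibitors were all higher in G-MDSCs. Of 9 tested S100 genes 5 were higher in G-MDSCs and 4 lower. *S100a11* and *S100a6*, calcium-binding proteins of many cell types, were higher, at 3.35 ± 0.19 and 1.73 ± 0.17. *S100a4*, a calcium-binding protein of motile cells, was lower, at 3113, 2946, 4760.1 and 3935 CPM in the M-MDSC libraries and 39.3, 21.7, 25.1 and 64.3 CPM in the G-MDSC libraries (log2 fold change −6.62 ± 0.36, FDR = 3.34e-09). *S100a10*, the partner of annexin A2, had 146 to 297 CPM in M-MDSCs and 23.6 to 38.4 CPM in G-MDSCs (log2 fold change −2.82 ± 0.25, FDR = 4.04e-07). In the list of stefins and other protease inhibitors 12 of 16 were higher and 0 lower (1 lower with the mouse as a block, and 12 higher and 2 lower with library size alone), with a median log2 fold change of 4.91.

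Stefins, which inhibit cysteine cathepsins, were at or near 0 in M-MDSCs. *Stfa2l1* had 0.514, 0.178, 0 and 1.12 CPM in the M-MDSC libraries and 401, 497, 428 and 592 CPM in the G-MDSC libraries. *Gm5483*, a stefin-like gene, had 0, 0.178, 0 and 0.141 CPM in the M-MDSC libraries and 390.3, 378, 222 and 422 CPM in the G-MDSC libraries, and with 2 counts in all 4 M-MDSC libraries together the ratio was 4346 (95% counting interval 1203 to 35897). *Stfa2* had a ratio of 327 (112 to 1591) on 3 counts in M-MDSCs, and *Stfa3*, with no count there, was at least 68.6-fold higher against a floor of 3 counts over the subset. Stefins are near-identical in sequence, so the division of reads among them is uncertain. *Slpi*, an inhibitor of elastase, had 184 to 284 CPM in M-MDSCs and 3617 to 4784 CPM in G-MDSCs (log2 fold change 4.21 ± 0.19, FDR = 6.17e-10).

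Transcription factors followed the same division in part. *Irf8*, which directs progenitors to the monocyte, had 544, 494, 529 and 477 CPM in the M-MDSC libraries and 93.6, 122, 116 and 106 CPM in the G-MDSC libraries (log2 fold change −2.22 ± 0.15, FDR = 3.05e-08). *Klf4*, a factor of the same lineage, had 309, 359, 329 and 345 CPM in the M-MDSC libraries and 14.4, 37.6, 30.8 and 29 CPM in the G-MDSC libraries (log2 fold change −3.58 ± 0.25, FDR = 3.07e-08). Every M-MDSC library lay above every G-MDSC library for both. *Zeb2*, a factor of monocytes and macrophages, was lower as well, at −2.47 ± 0.18. In the monocyte fate list 9 of 20 genes were lower and 5 higher, the latter including *Klf2*, a factor of quiescent leukocytes (log2 fold change 2.30 ± 0.22, FDR = 7.29e-07), and *Egr1*, an immediate early gene (log2 fold change 3.94 ± 0.21, FDR = 3.57e-09). *Nr4a1*, a nuclear receptor of patrolling monocytes, had 827, 76.3, 56.3 and 215 CPM in the M-MDSC libraries and 593, 176, 70 and 93.5 CPM in the G-MDSC libraries, highest in mouse 1 of both subsets (FDR = 0.731).

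Of 20 granulocyte fate factors 13 were higher and 3 lower. *Cebpe*, which switches on the secondary granule genes, had 3.86, 4.46, 3.71 and 4.36 CPM in the M-MDSC libraries and 36.1, 15.3, 25.6 and 17.7 CPM in the G-MDSC libraries (log2 fold change 2.52 ± 0.33, FDR = 2.14e-05). Mouse 1 had the most *Cebpe* among the G-MDSC libraries, as of *Ltf*, *Ngp* and *Camp*. A link between these levels was not tested. *Cebpd*, a C/EBP factor of mature myeloid cells, had 46.2 to 101 CPM in M-MDSCs and 493 to 672 CPM in G-MDSCs (log2 fold change 3.05 ± 0.23, FDR = 8.6e-08). *Klf5* had 3.09 to 5.23 CPM in M-MDSCs and 54.8 to 89.4 CPM in G-MDSCs (log2 fold change 3.86 ± 0.27, FDR = 3.46e-08).

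IL-1 family genes differed widely. Of 12 tested members 9 were higher in G-MDSCs, 8 of them at least 4-fold, and 2 were lower, with a median log2 fold change of 3.56. The counts were 9 higher and 0 lower with the size factors of DESeq2 and 9 higher and 1 lower with the correction for GC content and length. With library size alone they were 7 higher and 2 lower. *Il1b* (chr2:129364570-129371139), which encodes pro-IL-1β, had 204, 204, 147 and 271 CPM in the M-MDSC libraries and 18095, 21973, 20201 and 26466 CPM in the G-MDSC libraries (log2 fold change 6.72 ± 0.25, FDR = 1.08e-10). It took 1.44% to 1.95% of all counts of a G-MDSC library and 0.0185% to 0.0342% of those of an M-MDSC library. *Il1f9*, the symbol of the files for the gene of IL-36γ, had 0.257, 0, 0 and 0.141 CPM in the M-MDSC libraries and 287, 322, 361 and 268 CPM in the G-MDSC libraries, a ratio of 2609 (95% counting interval 892 to 12656) on 3 counts in M-MDSCs. *Il18* was lower in G-MDSCs, at 35.6, 41.7, 58.7 and 47.2 CPM in the M-MDSC libraries and 20.9, 29, 35.9 and 35.9 CPM in the G-MDSC libraries (log2 fold change −0.59 ± 0.23, FDR = 0.046), the direction opposite to that of *Il1b*. This call did not pass in DESeq2 (FDR = 0.0627), nor when any 1 library other than M-MDSC replicate 1 was left out (FDR = 0.0537 to 0.164).

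Antagonists and accessory chains of IL-1 and IL-18 were higher in G-MDSCs. *Il1r2*, the decoy receptor, had 66.5, 169, 130.2 and 134 CPM in the M-MDSC libraries and 2356, 2510.2, 2068 and 4934 CPM in the G-MDSC libraries (log2 fold change 4.57 ± 0.34, FDR = 6.94e-08). *Il1rn*, the receptor antagonist, had 7.33, 11.8, 15.7 and 17.6 CPM in the M-MDSC libraries and 381, 412, 423 and 578 CPM in the G-MDSC libraries (log2 fold change 5.10 ± 0.27, FDR = 3.08e-09). Neither overlapped between the subsets, and mouse 4 was the highest of the G-MDSC libraries in both. *Il1rap*, the shared signalling chain of the IL-1 receptors, had 1.55 to 6.43 CPM in M-MDSCs and 44 to 69.4 CPM in G-MDSCs (log2 fold change 4.00 ± 0.38, FDR = 8.26e-07). *Il18rap*, the accessory chain of the IL-18 receptor, had 6.43 to 19.1 CPM in M-MDSCs and 216 to 303 CPM in G-MDSCs (log2 fold change 4.30 ± 0.28, FDR = 1.8e-08). *Il18bp*, which binds and blocks IL-18, had 0.891 to 3.99 CPM in M-MDSCs and 20.5 to 25.6 CPM in G-MDSCs (log2 fold change 3.12 ± 0.39, FDR = 1.1e-05).

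Of 20 components of inflammasomes 6 were higher and 7 lower, near the 23.7% and 27.4% of all genes. The counts were 5 higher and 10 lower with upper-quartile scaling, 4 higher and 11 lower with library size alone, and 6 higher and 9 lower with the mouse as a block. *Pycard*, the adaptor ASC, had 109, 88.2, 108 and 114 CPM in the M-MDSC libraries and 28.6, 14, 17 and 11.5 CPM in the G-MDSC libraries (log2 fold change −2.55 ± 0.25, FDR = 1.36e-06). *Nlrc4*, the sensor adaptor for flagellin, had 13.5 to 20.5 CPM in M-MDSCs and 1.83 to 5.64 CPM in G-MDSCs (log2 fold change −2.32 ± 0.40, FDR = 0.000213). Its receptors *Naip5* and *Naip6*, which are near-identical to each other, were lower too, at −2.88 ± 0.38 and −3.10 ± 0.27. *P2rx7*, the ATP-gated channel upstream of NLRP3, had 33.2 to 64.8 CPM in M-MDSCs and 1.97 to 10 CPM in G-MDSCs (log2 fold change −3.30 ± 0.41, FDR = 1.21e-05). *Panx1*, a channel that releases ATP, had 22.4 to 37.1 CPM in M-MDSCs and 6.08 to 10.8 CPM in G-MDSCs (log2 fold change −2.02 ± 0.29, FDR = 5.19e-05). For each of these genes the M-MDSC libraries lay above the G-MDSC libraries without overlap.

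The higher members were led by *Nlrp12*, a relative of NLRP3 expressed in neutrophils, at 0.771, 1.96, 1.09 and 0 CPM in the M-MDSC libraries and 183, 157, 154 and 159 CPM in the G-MDSC libraries (log2 fold change 7.48 ± 0.42, FDR = 4.6e-09). *Mefv*, which encodes pyrin, was higher (log2 fold change 0.91 ± 0.18, FDR = 0.000583). *Txnip*, a partner of thioredoxin, was higher (log2 fold change 2.92 ± 0.74, FDR = 0.00431), at 371, 44.4, 10.5 and 138 CPM in the M-MDSC libraries and 1695, 1395, 572 and 616 CPM in the G-MDSC libraries, with a wide spread among the M-MDSC libraries. *Casp1*, which cleaves pro-IL-1β, had 83.2, 56.9, 51.5 and 80 CPM in the M-MDSC libraries and 46.3, 42.6, 32.9 and 62.3 CPM in the G-MDSC libraries, with an FDR of 0.0498 and a fold change under the minimum. *Gsdmd*, the pore protein of pyroptosis, had 69.2 to 83.6 CPM in M-MDSCs and 80.3 to 106 CPM in G-MDSCs (FDR = 0.0773), and *Aim2*, the sensor of cytosolic DNA, had 63 to 112 CPM in M-MDSCs and 90.5 to 127 CPM in G-MDSCs (FDR = 0.326).

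**Figure D3:**
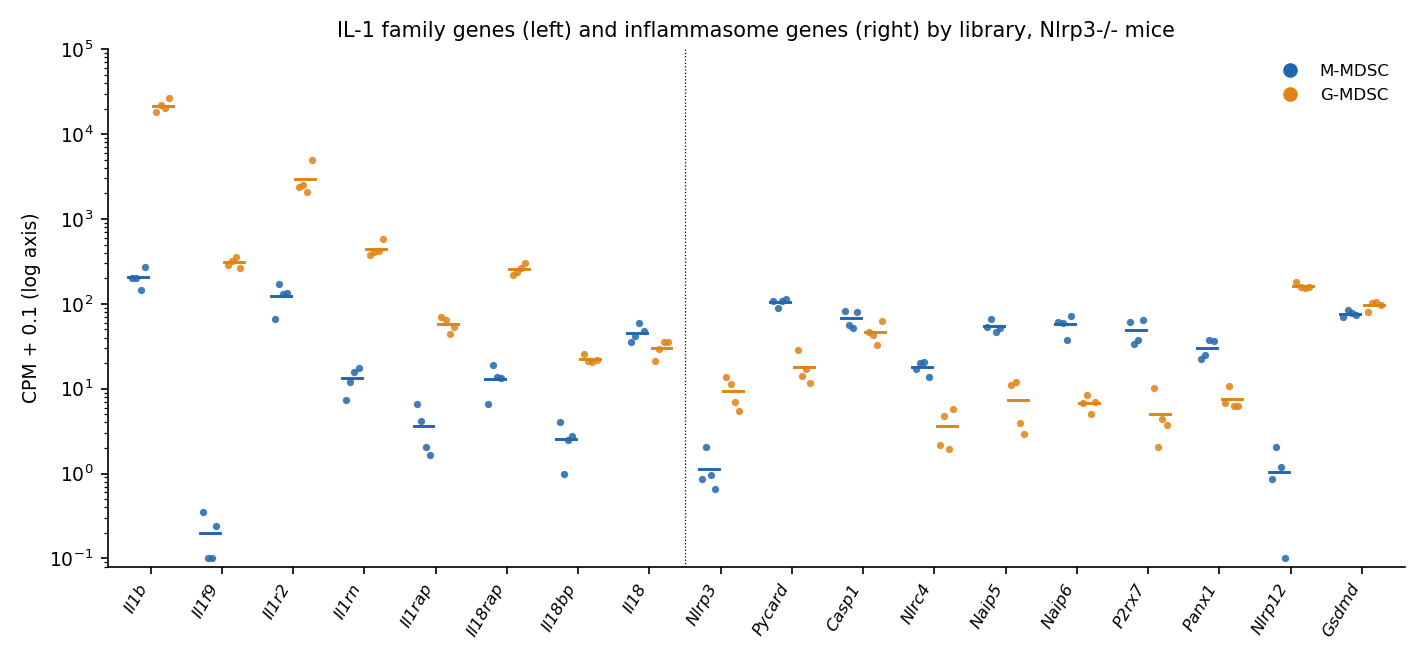
Level in each of the 8 *Nlrp3*-/- libraries (CPM + 0.1 on a log axis, 1 point per mouse) of 8 IL-1 family genes and 10 inflammasome genes, with M-MDSCs in blue, G-MDSCs in orange and a bar at each mean. G-MDSCs lie above M-MDSCs from *Il1b* (18095 to 26466 CPM against 147 to 271 CPM) to *Il18bp*, while *Pycard*, *Nlrc4*, *Naip5*, *Naip6*, *P2rx7* and *Panx1* lie below.

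Cytokine receptors differed in both directions. In their list 8 of 21 were higher and 7 lower, against 23.7% and 27.4% of all genes tested. With library size as the only scaling 7 were higher and 8 lower. *Csf2rb*, the shared chain of the GM-CSF receptor, had 399.8 to 601 CPM in M-MDSCs and 965 to 1722 CPM in G-MDSCs (log2 fold change 1.34 ± 0.19, FDR = 4.88e-05). *Il4ra*, a receptor chain for IL-4 and IL-13, had 67.2 to 148 CPM in M-MDSCs and 432 to 701 CPM in G-MDSCs (log2 fold change 2.15 ± 0.24, FDR = 4.74e-06). *Ifngr1*, a chain of the interferon-γ receptor, was lower, at 616 to 846 CPM in M-MDSCs and 325 to 399 CPM in G-MDSCs (log2 fold change −1.03 ± 0.16, FDR = 7.59e-05). *Il6st*, the signalling chain gp130 of the IL-6 family, was lower, at 41.5 to 55.6 CPM in M-MDSCs and 2.56 to 7.69 CPM in G-MDSCs (log2 fold change −3.05 ± 0.31, FDR = 1.43e-06).

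Of 13 chemokine receptors 7 were higher and 4 lower. *Ccr1*, a receptor for CCL3 and CCL5, had 12.1 to 18.1 CPM in M-MDSCs and 361 to 545 CPM in G-MDSCs (log2 fold change 5.00 ± 0.21, FDR = 3.74e-10). *Cxcr1* had 0, 0, 0 and 0.703 CPM in the M-MDSC libraries and 72.6, 58.3, 81.3 and 51.2 CPM in the G-MDSC libraries (log2 fold change 8.22 ± 0.55, FDR = 2.33e-08). *Cxcr4*, which holds neutrophils in the bone marrow, had 147 to 335 CPM in M-MDSCs and 1187 to 1853 CPM in G-MDSCs (log2 fold change 2.77 ± 0.25, FDR = 5.89e-07). Beside *Ccr2* and *Cx3cr1*, *Cmklr1*, the chemerin receptor, was lower (log2 fold change −2.82 ± 0.28, FDR = 1.29e-06).

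Of 12 chemokines tested 4 were higher and 3 lower, against 23.7% and 27.4% of all genes tested. The balance turned under upper-quartile scaling (3 higher and 4 lower) and with library size alone (3 higher and 5 lower). *Cxcl2*, a ligand of CXCR2, had 176, 50.3, 33.8 and 56.6 CPM in the M-MDSC libraries and 3485, 1492, 654 and 1582 CPM in the G-MDSC libraries (log2 fold change 4.50 ± 0.56, FDR = 1.3e-05), highest in mouse 1 of both subsets. *Ccl6* had 1174 to 1456 CPM in M-MDSCs and 3907 to 5500.4 CPM in G-MDSCs (log2 fold change 1.88 ± 0.16, FDR = 2.98e-07). *Ccl9*, which attracts dendritic cells and other myeloid cells, was lower, at 434, 269, 363 and 412 CPM in the M-MDSC libraries and 14.7, 11.8, 6.29 and 14.1 CPM in the G-MDSC libraries (log2 fold change −4.99 ± 0.27, FDR = 3.41e-09). *Cxcl16*, a transmembrane chemokine, was lower from a low level, at 9.59 to 30.8 CPM in M-MDSCs and 0 to 3.07 CPM in G-MDSCs (log2 fold change −3.96 ± 0.72, FDR = 0.00037).

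Paired activating and inhibitory receptors were mostly higher in G-MDSCs. In the TREM, SIRP, PIR and Siglec list 18 of 21 were higher and *Trem2*, a lipid receptor of macrophages, alone was lower (log2 fold change −4.61 ± 0.54, FDR = 6.77e-06). *Trem1*, which amplifies inflammatory signalling in neutrophils, had 44.2, 24.4, 21.6 and 47.8 CPM in the M-MDSC libraries and 1664, 1412, 1107 and 2020.2 CPM in the G-MDSC libraries (log2 fold change 5.48 ± 0.31, FDR = 4.6e-09). *Trem3*, a related receptor, had 4.99 to 14.1 CPM in M-MDSCs and 92 to 181 CPM in G-MDSCs (log2 fold change 3.82 ± 0.34, FDR = 3.86e-07). *Cd300lf*, an inhibitory receptor for sphingolipids, had 66 to 139 CPM in M-MDSCs and 1893 to 2279.8 CPM in G-MDSCs (log2 fold change 4.22 ± 0.23, FDR = 3.78e-09). The Siglecs *Cd33* and *Siglece*, which bind sialic acids, were higher by similar steps, at 4.47 ± 0.22 and 4.00 ± 0.27. *Tyrobp*, the adaptor DAP12 that several of these receptors use, had 1032 to 1517 CPM in M-MDSCs and 3513 to 4479.6 CPM in G-MDSCs (log2 fold change 1.60 ± 0.16, FDR = 1.7e-06).

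Receptors for chemoattractants and lipid mediators were higher for 7 of 12 and lower for 4. *Fpr1*, a receptor for bacterial formyl peptides, had 0.178 to 7.46 CPM in M-MDSCs and 177 to 252 CPM in G-MDSCs (log2 fold change 5.94 ± 0.54, FDR = 5.73e-07). *C5ar1*, the C5a receptor, had 15, 9.98, 3.27 and 9.28 CPM in the M-MDSC libraries and 573, 572, 436 and 627 CPM in the G-MDSC libraries (log2 fold change 5.84 ± 0.34, FDR = 6.49e-09). *Hcar2*, the niacin receptor, had 7.84 to 13.1 CPM in M-MDSCs and 563 to 850 CPM in G-MDSCs (log2 fold change 6.03 ± 0.23, FDR = 1.43e-10). *Ptafr*, the receptor for platelet-activating factor, was higher (log2 fold change 3.19 ± 0.26, FDR = 1.44e-07). The lower members included *Ptger4* (−1.44 ± 0.17), *Ptgir* (−2.63 ± 0.42) and *Cysltr1* (−4.92 ± 0.81), receptors for prostaglandin E2, prostacyclin and cysteinyl leukotrienes.

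Of 6 receptors and chains for IgG 3 were higher and 3 lower. The counts were 2 higher and 3 lower with upper-quartile scaling, and 1 higher and 3 lower with library size alone. *Fcgr4* and *Fcgr3*, which activate on immune complexes, were higher (3.14 ± 0.17 and 1.19 ± 0.14). *Fcgr1*, the high-affinity receptor, was lower, at 80.7, 82.4, 102 and 82.4 CPM in the M-MDSC libraries and 2.79, 3.2, 3.65 and 6.92 CPM in the G-MDSC libraries (log2 fold change −4.39 ± 0.28, FDR = 1.41e-08), as was the inhibitory *Fcgr2b* (log2 fold change −1.93 ± 0.43, FDR = 0.00163). C-type lectin receptors divided evenly, 6 of 17 being higher and 6 lower, or 5 higher and 7 lower with library size alone. *Clec4d*, *Clec4e*, *Clec4n* and *Clec7a*, receptors for mycobacterial and fungal glycans, were higher, with log2 fold changes of 5.44 ± 0.25, 2.73 ± 0.19, 2.64 ± 0.26 and 2.11 ± 0.18. *Clec4a1*, *Clec4a3* and *Clec10a* were lower, at −3.13 ± 0.19, −2.88 ± 0.20 and −6.55 ± 0.42.

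The Toll-like receptor list had 9 higher and 5 lower genes of 22, and 5 higher and 8 lower with library size alone. *Tlr4*, for lipopolysaccharide, and *Tlr6*, for lipopeptides, were higher (2.27 ± 0.25 and 2.49 ± 0.23). *Tlr7*, for single-stranded RNA, was lower, at 91.6 to 142 CPM in M-MDSCs and 20.3 to 35.5 CPM in G-MDSCs (log2 fold change −2.17 ± 0.22, FDR = 1.59e-06). *Cd14*, the co-receptor for lipopolysaccharide, was called only with the mouse as a block (FDR = 0.284 without it and 0.00386 with it), at 238, 72, 36.6 and 152 CPM in the M-MDSC libraries and 239, 199, 114 and 182 CPM in the G-MDSC libraries, and with library size alone its log2 fold change turned to −0.18.

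Of 18 tested genes for suppressive effectors 11 were higher and 3 lower, a list that also holds *S100a8*, *S100a9* and *Cybb*. *Arg2*, the mitochondrial arginase, had 1.41, 2.5, 3.27 and 4.5 CPM in the M-MDSC libraries and 375, 389, 361 and 444 CPM in the G-MDSC libraries (log2 fold change 7.07 ± 0.29, FDR = 2.75e-10), whereas *Nos2* had at most 3 counts in any of the 8 libraries, below what could be tested. *Ptgs2*, cyclooxygenase-2, had 15, 8.73, 5.67 and 4.5 CPM in the M-MDSC libraries and 91.9, 49.2, 37.1 and 61 CPM in the G-MDSC libraries (log2 fold change 2.80 ± 0.38, FDR = 2.67e-05). *Entpd1*, the ectonucleotidase CD39, had 20.2 to 28.7 CPM in M-MDSCs and 267 to 333 CPM in G-MDSCs (log2 fold change 3.73 ± 0.18, FDR = 1.19e-09). *Cd84*, a SLAM receptor used as a marker of MDSCs, had 126 to 180.3 CPM in M-MDSCs and 449.9 to 582 CPM in G-MDSCs (log2 fold change 1.85 ± 0.17, FDR = 5.63e-07). *Tgfb1*, by contrast, was lower, at 22.2, 20.3, 50.1 and 37.5 CPM in the M-MDSC libraries and 3.26, 8.61, 10.3 and 5.12 CPM in the G-MDSC libraries (log2 fold change −2.24 ± 0.39, FDR = 0.000252).

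Among subunits of the phagocyte NADPH oxidase *Cybb* was lower, and *Ncf1*, *Ncf4* and *Rac2* were higher. *Cybb*, the catalytic membrane chain, had 2190.4, 2142, 2666 and 2159 CPM in the M-MDSC libraries and 601, 403, 476 and 414 CPM in the G-MDSC libraries (log2 fold change −2.27 ± 0.17, FDR = 8.25e-08), and its partner *Cyba* had 476 to 638 CPM in M-MDSCs and 629 to 717 CPM in G-MDSCs (FDR = 0.171). *Ncf1* had 284 to 392 CPM in M-MDSCs and 1162 to 1543 CPM in G-MDSCs (log2 fold change 2.04 ± 0.16, FDR = 1.25e-07), and *Ncf4* was at 1.13 ± 0.17. *Rac2*, the GTPase of the complex, had 465 to 656 CPM in M-MDSCs and 2344 to 3031 CPM in G-MDSCs (log2 fold change 2.27 ± 0.17, FDR = 6.16e-08). With library size alone the list turned from 6 higher and 2 lower of 10 to 2 higher and 3 lower.

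Enzymes of leukotriene and prostaglandin synthesis were higher for 8 of 15 tested and lower for 0. With library size alone the calls were 6 higher and 5 lower, and with the mouse as a block 9 higher and 1 lower. *Alox5*, 5-lipoxygenase, had 13.5, 18.7, 10.9 and 9.7 CPM in the M-MDSC libraries and 307, 296, 309.7 and 324 CPM in the G-MDSC libraries (log2 fold change 4.55 ± 0.22, FDR = 1.09e-09). *Alox5ap*, its activating protein, had 842 to 1155 CPM in M-MDSCs and 2145 to 2437 CPM in G-MDSCs (log2 fold change 1.13 ± 0.15, FDR = 2.65e-05). *Ltc4s*, which makes leukotriene C4, had 0.643 to 1.31 CPM in M-MDSCs and 4.87 to 11.6 CPM in G-MDSCs (log2 fold change 2.84 ± 0.55, FDR = 0.0006). *Lta4h*, which makes leukotriene B4, was called only with the mouse as a block (FDR = 0.0756 without it and 0.000368 with it). It had 45.8, 13.5, 3.71 and 18.7 CPM in the M-MDSC libraries and 122, 32, 31.6 and 24.6 CPM in the G-MDSC libraries, so that mouse 1 was the highest and the G-MDSC library was above the M-MDSC library in each mouse.

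Interferon-stimulated genes differed in both directions. Of 59 tested 24 were higher in G-MDSCs and 13 lower, and with library size alone the balance turned to 14 higher and 22 lower. *Ifitm1*, a membrane protein that blocks viral entry, had 15.8, 35.8, 36 and 26.8 CPM in the M-MDSC libraries and 2085, 2696, 2689 and 2991 CPM in the G-MDSC libraries (log2 fold change 6.52 ± 0.28, FDR = 4.94e-10). *Rsad2*, viperin, had 60.4, 85.6, 103 and 78.1 CPM in the M-MDSC libraries and 652, 919.6, 906 and 1094 CPM in the G-MDSC libraries (log2 fold change 3.45 ± 0.21, FDR = 1.19e-08). *Isg15*, the ubiquitin-like modifier, had 48.6, 33.3, 20.3 and 47.4 CPM in the M-MDSC libraries and 172, 185, 166 and 157 CPM in the G-MDSC libraries (log2 fold change 2.18 ± 0.24, FDR = 3.24e-06). None of the 3 overlapped between the subsets. *Slfn4*, a schlafen of myeloid cells, had 9.38 to 24.8 CPM in M-MDSCs and 677 to 1208 CPM in G-MDSCs (log2 fold change 5.46 ± 0.31, FDR = 4.99e-09), and *Ifit1* and *Ifit3*, which act on viral RNA, had log2 fold changes of 2.57 ± 0.20 and 2.28 ± 0.21.

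The lower interferon-stimulated genes included *Mx1*, a dynamin-like GTPase, at 43.7 to 75.9 CPM in M-MDSCs and 0.984 to 3.04 CPM in G-MDSCs (log2 fold change −4.92 ± 0.35, FDR = 4.18e-08). *Ifi203*, of the AIM2-like family, had 375 to 453 CPM in M-MDSCs and 63.5 to 77.9 CPM in G-MDSCs (log2 fold change −2.63 ± 0.15, FDR = 7.04e-09). *Ifitm3*, a relative of *Ifitm1*, had 3176 to 5509.7 CPM in M-MDSCs and 1697 to 2408 CPM in G-MDSCs (log2 fold change −1.04 ± 0.19, FDR = 0.000415). *Bst2*, tetherin, had 22.9, 40.3, 35.3 and 14.6 CPM in the M-MDSC libraries and 6.05, 1.97, 5.68 and 2.05 CPM in the G-MDSC libraries (log2 fold change −2.82 ± 0.43, FDR = 8.91e-05). *Irf7*, the factor that amplifies the response, had 155 to 228 CPM in M-MDSCs and 210.2 to 293 CPM in G-MDSCs (FDR = 0.0571).

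The interferon response element, searched as GAAA, any 2 bases and GAAA on both strands, was found in 3.44% of all promoters and in 32 of the 58 promoters matched to the list. It stood in 14 of 23 promoters of the higher genes, in 7 of 12 of the lower genes and in 9 of 20 of the genes that were tested and not called. The promoters of *Isg15* (chr4:156200769-156201068, minus strand), which was higher in G-MDSCs, and *Bst2* (chr8:71537423-71537722, minus strand), which was lower, are printed to show the element in a gene of each kind. It is in capitals and begins 78, 72 and 66 bases before the start in *Isg15* and 130 and 124 bases before it in *Bst2*, as overlapping matches.
Isg15: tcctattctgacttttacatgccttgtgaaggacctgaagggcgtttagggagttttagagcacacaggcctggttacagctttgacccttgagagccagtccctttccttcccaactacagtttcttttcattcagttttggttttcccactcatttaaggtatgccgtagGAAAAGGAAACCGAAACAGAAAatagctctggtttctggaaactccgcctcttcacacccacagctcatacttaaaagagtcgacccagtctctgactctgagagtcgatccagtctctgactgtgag
Bst2: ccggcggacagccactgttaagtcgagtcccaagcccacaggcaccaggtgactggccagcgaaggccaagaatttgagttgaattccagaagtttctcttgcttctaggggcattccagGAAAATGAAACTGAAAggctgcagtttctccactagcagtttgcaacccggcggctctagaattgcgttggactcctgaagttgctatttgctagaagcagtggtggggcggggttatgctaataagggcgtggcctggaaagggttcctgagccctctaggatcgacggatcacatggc

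Immediate early genes were higher in G-MDSCs for 23 of 28 tested, with a median log2 fold change of 1.80. *Egr1* had 143, 161, 106 and 139 CPM in the M-MDSC libraries and 2288, 2276, 1425 and 2447 CPM in the G-MDSC libraries, *Fos* had 211 to 518 CPM in M-MDSCs and 537 to 1386 CPM in G-MDSCs (log2 fold change 1.63 ± 0.33, FDR = 0.000799) and *Junb* had 391 to 825 CPM in M-MDSCs and 2831 to 4162 CPM in G-MDSCs (log2 fold change 2.44 ± 0.22, FDR = 5.49e-07). *Dusp1*, a phosphatase of MAP kinases, had 375 to 706 CPM in M-MDSCs and 3154 to 4247 CPM in G-MDSCs (log2 fold change 2.80 ± 0.20, FDR = 5.28e-08). *Ier2* and *Btg2* were higher as well (2.55 ± 0.20 and 2.97 ± 0.17). *Nr4a2*, a nuclear receptor, was the single lower member, at 176, 253, 125 and 219 CPM in the M-MDSC libraries and 21.4, 48.7, 30.8 and 70.5 CPM in the G-MDSC libraries (log2 fold change −2.18 ± 0.32, FDR = 6.05e-05).

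In the TNF and NF-κB list 13 of 37 were higher and 3 lower (5 lower with the mouse as a block), or 8 higher and 14 lower with library size alone. *Tnfrsf1a*, the TNF receptor TNFR1, had 312 to 354 CPM in M-MDSCs and 806 to 1369 CPM in G-MDSCs (log2 fold change 1.63 ± 0.18, FDR = 2.99e-06). *Nfkbiz* and *Nfkbid*, nuclear regulators of NF-κB, were higher (1.48 ± 0.17 and 2.29 ± 0.20). *Ikbkb*, the kinase IKKβ, was lower, at 466, 607, 779 and 678 CPM in the M-MDSC libraries and 138, 142, 163 and 160.2 CPM in the G-MDSC libraries (log2 fold change −2.07 ± 0.18, FDR = 2.94e-07). *Tnf* itself had 36.4 to 75.3 CPM in M-MDSCs and 37.3 to 72.3 CPM in G-MDSCs (FDR = 0.412).

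In glycolysis and the pentose phosphate pathway 12 of 28 were higher in G-MDSCs and 3 lower, and with library size alone 7 higher and 12 lower. *Slc2a3*, the glucose transporter GLUT3, had 6.43, 12.5, 9.38 and 5.9 CPM in the M-MDSC libraries and 631, 635, 559 and 750 CPM in the G-MDSC libraries (log2 fold change 6.25 ± 0.26, FDR = 3.07e-10). *Slc16a3*, which exports lactate, had 59.3 to 123 CPM in M-MDSCs and 588 to 987 CPM in G-MDSCs (log2 fold change 3.02 ± 0.23, FDR = 1.06e-07). *Hk3*, the hexokinase of myeloid cells, had 6.6 to 32.8 CPM in M-MDSCs and 64.3 to 153 CPM in G-MDSCs (log2 fold change 2.56 ± 0.43, FDR = 0.000191). *Taldo1*, transaldolase, had 697 to 1074 CPM in M-MDSCs and 3371 to 4149 CPM in G-MDSCs (log2 fold change 2.1 ± 0.17, FDR = 1.73e-07). Of 20 genes for the hypoxia response and glycogen 9 were higher and 3 lower, or 5 higher and 7 lower with library size alone, and *Pygl*, glycogen phosphorylase, had 365 to 559 CPM in M-MDSCs and 1333 to 1852 CPM in G-MDSCs (log2 fold change 1.91 ± 0.18, FDR = 6.95e-07).

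Mitochondrial genes were lower more often than higher. In complex I 18 of 36 genes were lower and 2 higher, in complexes II to V 17 of 39 were lower and 1 higher, and in the citrate cycle 12 of 22 were lower and 1 higher. *Ndufv1*, of complex I, had 71.2 to 105 CPM in M-MDSCs and 40 to 47.4 CPM in G-MDSCs (log2 fold change −1.03 ± 0.18, FDR = 0.000208). *Cycs*, cytochrome c, had 10.5 to 21.6 CPM in M-MDSCs and 3.59 to 4.92 CPM in G-MDSCs (log2 fold change −2.0 ± 0.33, FDR = 0.000177). Outside the mitochondrion, *Idh1*, cytosolic isocitrate dehydrogenase, had 292, 108, 93.8 and 262 CPM in the M-MDSC libraries and 51, 43.3, 29.4 and 36.9 CPM in the G-MDSC libraries (log2 fold change −2.24 ± 0.34, FDR = 8.31e-05). *Mdh2*, malate dehydrogenase, went the other way, at 177 to 325 CPM in M-MDSCs and 429 to 471 CPM in G-MDSCs (log2 fold change 0.88 ± 0.18, FDR = 0.000903). Mitochondrial ribosomal proteins were lower for 45 of 73, with a median log2 fold change of −1.18.

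Cytosolic ribosomal proteins were lower for 59 of 76 and higher for 2, with a median log2 fold change of −0.91. *Rpl3* had 566, 471, 479.9 and 627 CPM in the M-MDSC libraries and 210, 235, 224 and 241 CPM in the G-MDSC libraries (log2 fold change −1.24 ± 0.15, FDR = 1.03e-05). *Rplp0* had 838, 718, 825 and 1000.1 CPM in the M-MDSC libraries and 317, 379.9, 356 and 371 CPM in the G-MDSC libraries (log2 fold change −1.25 ± 0.15, FDR = 1e-05). Neither overlapped between the subsets. *Eef2*, the elongation factor that moves the ribosome along mRNA, had 1570.3 to 2622 CPM in M-MDSCs and 816 to 974 CPM in G-MDSCs (log2 fold change −1.15 ± 0.17, FDR = 6.5e-05), and 24 of 42 translation and nucleolar genes were lower against 4 higher. Proteasome subunits were lower for 16 of 31, among them *Psma7* at 432 to 562 CPM in M-MDSCs and 171 to 201 CPM in G-MDSCs (log2 fold change −1.45 ± 0.15, FDR = 2.13e-06), and the other 15 were not called. Of 45 splicing factors 16 were lower and 8 higher, and of 28 endoplasmic reticulum genes 11 were lower and 5 higher, *Ddit3*, the stress factor CHOP, being higher (log2 fold change 2.45 ± 0.27, FDR = 3.58e-06) and the chaperone *Hsp90b1* lower (log2 fold change −1.27 ± 0.31, FDR = 0.00349).

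Among redox genes 10 of 29 were higher and 9 lower, against 23.7% and 27.4% of all genes tested. With library size alone 6 were higher and 13 lower. *Slc7a11*, the cystine importer, had 3.21, 8.38, 7.85 and 6.04 CPM in the M-MDSC libraries and 107, 135, 100.2 and 155 CPM in the G-MDSC libraries (log2 fold change 4.31 ± 0.28, FDR = 2.18e-08). *Txn1*, thioredoxin, had 184, 39.2, 40.8 and 82.9 CPM in the M-MDSC libraries and 1257, 685, 456 and 509.9 CPM in the G-MDSC libraries (log2 fold change 3.06 ± 0.47, FDR = 8.52e-05), highest in mouse 1 of both subsets. *Gstm1*, a glutathione transferase, was lower, at 159 to 239 CPM in M-MDSCs and 7.3 to 22.8 CPM in G-MDSCs (log2 fold change −3.74 ± 0.29, FDR = 1.25e-07), and so was *Prdx1*, a peroxiredoxin (−2.80 ± 0.18).

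In cholesterol and fatty acid metabolism 17 of 40 were lower and 6 higher. *Lpl*, lipoprotein lipase, had 112, 56, 97.2 and 94.6 CPM in the M-MDSC libraries and 4.89, 10.8, 4.26 and 7.69 CPM in the G-MDSC libraries (log2 fold change −3.71 ± 0.31, FDR = 2.58e-07). *Fabp5*, which carries fatty acids, was higher (log2 fold change 1.91 ± 0.27, FDR = 4.51e-05).

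**Figure D4:**
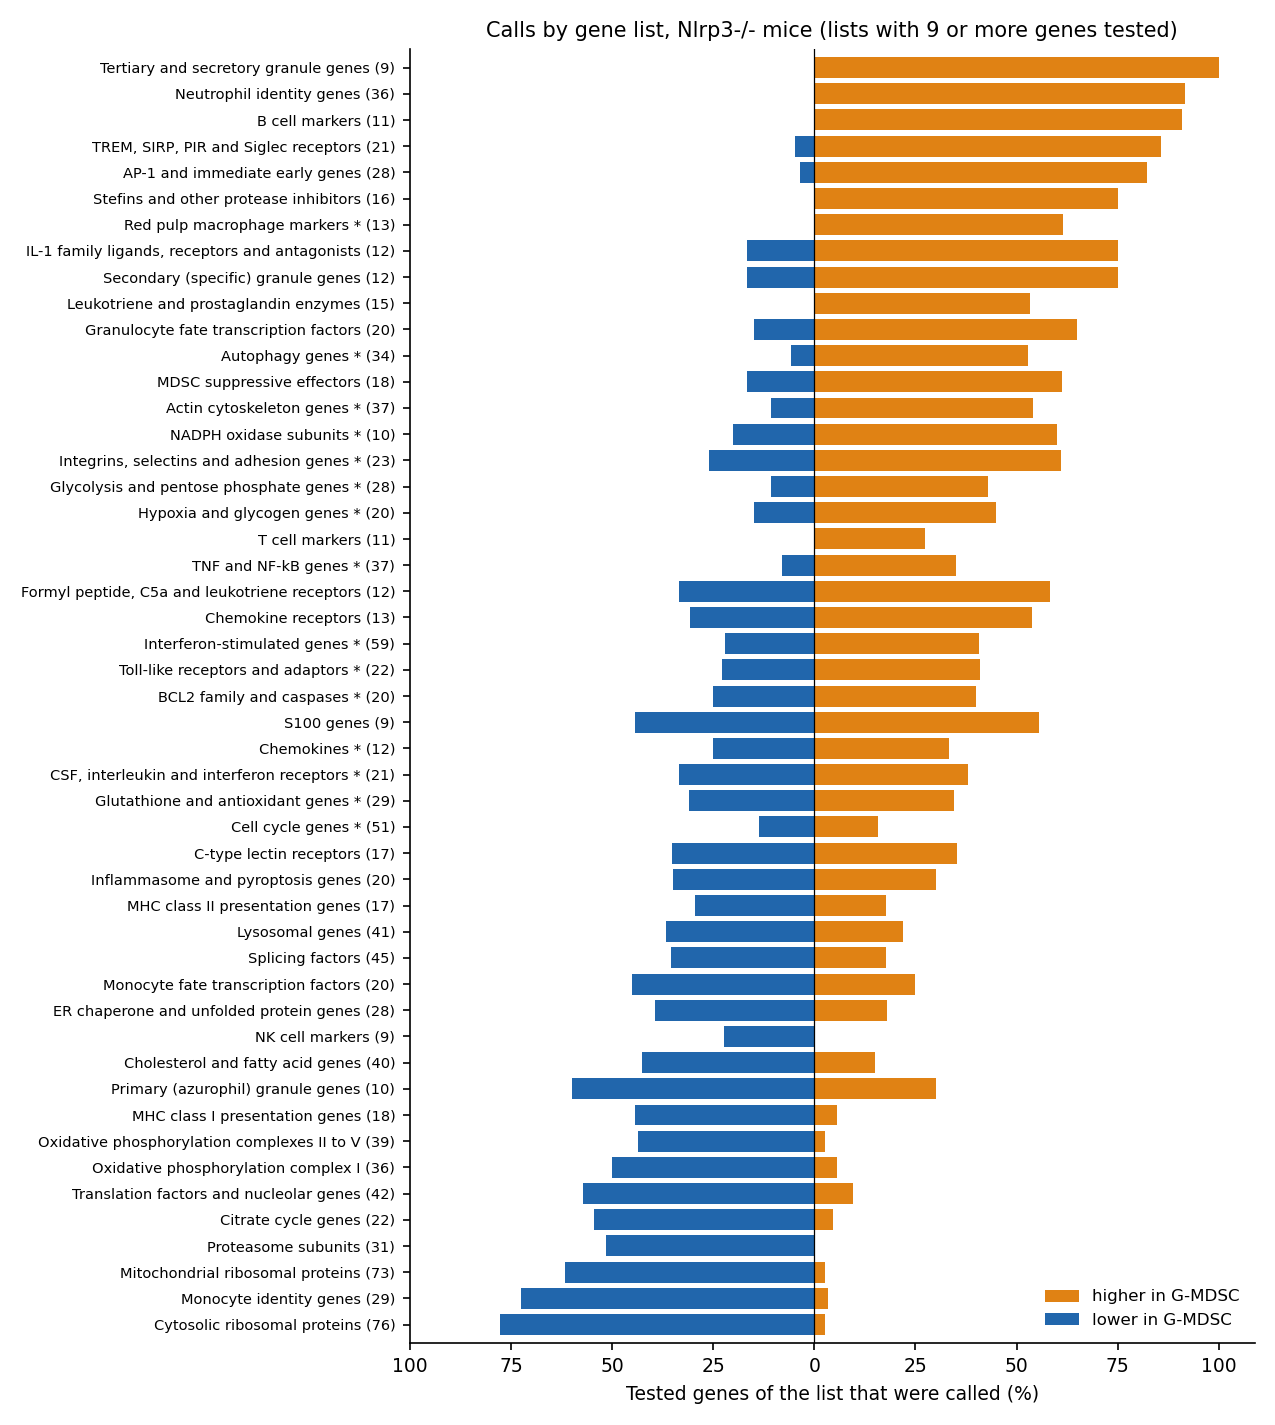
Genes of each list that were higher (orange, to the right) or lower (blue, to the left) in G-MDSCs of *Nlrp3*-/- mice, as a percentage of the tested genes of the list, with the number tested in brackets, for lists with at least 9 genes tested. Neutrophil identity genes (33 of 36 higher) and cytosolic ribosomal proteins (59 of 76 lower) reach far to either side, and an asterisk marks lists whose majority turned under another scaling.

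Lysosomal genes were lower for 15 of 41 and higher for 9, or 4 higher and 24 lower with library size alone. *Lamp1*, a membrane protein of lysosomes, had 1119 to 1713 CPM in M-MDSCs and 329.6 to 385 CPM in G-MDSCs (log2 fold change −1.93 ± 0.17, FDR = 3.03e-07). *Npc2*, which carries cholesterol, had 1118 to 2480.3 CPM in M-MDSCs and 285 to 375 CPM in G-MDSCs (log2 fold change −2.42 ± 0.22, FDR = 5.69e-07). The cathepsins *Ctss*, *Ctsc*, *Ctsh* and *Ctsb* were lower, with log2 fold changes of −3.18 ± 0.16, −3.62 ± 0.27, −1.70 ± 0.16 and −1.44 ± 0.17, and *Ctsd*, cathepsin D, was higher, at 262, 286, 396 and 309.6 CPM in the M-MDSC libraries and 2141, 2195, 2163 and 2762 CPM in the G-MDSC libraries (log2 fold change 2.89 ± 0.18, FDR = 1.13e-08). Autophagy genes were higher for 18 of 34 and lower for 2 (4 lower with the mouse as a block), or 7 higher and 10 lower with library size alone. *Gabarap*, which coats autophagosomes, had 150.1 to 197 CPM in M-MDSCs and 605 to 678 CPM in G-MDSCs (log2 fold change 1.82 ± 0.15, FDR = 2.07e-07), and *Map1lc3b*, of the LC3 family, was higher too (log2 fold change 1.63 ± 0.16, FDR = 1.55e-06).

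Of 51 cell cycle genes 8 were higher and 7 lower, below the 23.7% and 27.4% of all genes tested. With library size alone 7 were higher and 16 lower. *Mki67* and *Top2a*, markers of dividing cells, overlapped between the subsets. *Mki67* had 18.8, 19.1, 36 and 10.7 CPM in the M-MDSC libraries and 20, 9.1, 39.3 and 8.46 CPM in the G-MDSC libraries (FDR = 0.851) and *Top2a* had 24.7 to 59.3 CPM in M-MDSCs and 20.2 to 48.9 CPM in G-MDSCs (FDR = 0.411), and mouse 3 had the highest level of both genes in both subsets. *Cdkn1a*, the cell cycle inhibitor p21, had 228, 314, 334 and 342 CPM in the M-MDSC libraries and 21.4, 32, 23.1 and 34.6 CPM in the G-MDSC libraries (log2 fold change −3.46 ± 0.21, FDR = 1.1e-08). *Cdkn2d*, the inhibitor p19, went the other way, at 93.4 to 142 CPM in M-MDSCs and 616 to 824 CPM in G-MDSCs (log2 fold change 2.55 ± 0.19, FDR = 5.73e-08).

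Of 20 BCL2 family and caspase genes 8 were higher and 5 lower, or 4 higher and 9 lower with library size alone. *Mcl1*, a survival factor of neutrophils, had 900.5, 742, 739.8 and 805 CPM in the M-MDSC libraries and 3348, 2990.4, 2740.2 and 3237 CPM in the G-MDSC libraries (log2 fold change 1.95 ± 0.15, FDR = 8.75e-08). *Bcl2a1b*, of a group of near-identical survival genes, was higher (log2 fold change 2.07 ± 0.44, FDR = 0.00118), and *Bax*, which opens the outer mitochondrial membrane, was lower, at 13.1 to 24.4 CPM in M-MDSCs and 4.66 to 8.2 CPM in G-MDSCs (log2 fold change −1.65 ± 0.33, FDR = 0.000719).

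Of 23 adhesion genes 14 were higher and 6 lower, or 6 higher and 8 lower with library size alone. *Selplg*, the selectin ligand PSGL-1, had 242 to 400.1 CPM in M-MDSCs and 1591 to 1878 CPM in G-MDSCs (log2 fold change 2.49 ± 0.18, FDR = 6.63e-08). *Itgb7*, the β7 integrin chain, was lower, at 460.3, 544, 653 and 608 CPM in the M-MDSC libraries and 195, 191, 160.4 and 238 CPM in the G-MDSC libraries (log2 fold change −1.53 ± 0.17, FDR = 4.23e-06), while *Itgax*, which encodes CD11c, was higher (log2 fold change 2.70 ± 0.23, FDR = 2.52e-07). In the actin list 20 of 37 were higher and 4 lower, or 7 higher and 11 lower with library size alone. *Lcp1*, an actin-bundling protein of leukocytes, had 499.5 to 893 CPM in M-MDSCs and 4346 to 4807 CPM in G-MDSCs (log2 fold change 2.73 ± 0.20, FDR = 7.43e-08), and *Tmsb10*, a thymosin that binds actin monomers, had 629, 231, 221 and 689 CPM in the M-MDSC libraries and 32.6, 32.2, 23.5 and 56.6 CPM in the G-MDSC libraries (log2 fold change −3.61 ± 0.40, FDR = 3.9e-06). *Vim*, vimentin, was lower, at 848 to 2167 CPM in M-MDSCs and 434 to 696 CPM in G-MDSCs (log2 fold change −1.31 ± 0.26, FDR = 0.00068), and *Lmnb1*, which encodes lamin B1 of the nuclear envelope, was higher, at 98, 143, 174 and 132 CPM in the M-MDSC libraries and 1939, 2357, 2070.1 and 2586 CPM in the G-MDSC libraries (log2 fold change 4.03 ± 0.20, FDR = 2.07e-09).

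Genes of antigen presentation were compared beside the markers of other spleen cells. In the MHC class II list 3 of 17 were higher and 5 lower, shares near the 23.7% and 27.4% of all genes. The counts were 3 higher and 7 lower with upper-quartile scaling and 1 higher and 12 lower with library size alone. *H2-Aa*, a class II chain, had 535, 658, 452 and 835 CPM in the M-MDSC libraries and 447, 527, 605 and 755 CPM in the G-MDSC libraries (FDR = 0.747), and *Cd74*, the invariant chain, had 416 to 781 CPM in M-MDSCs and 310 to 528 CPM in G-MDSCs (FDR = 0.0329). *H2-DMa*, which loads peptides, was lower, at 144 to 204 CPM in M-MDSCs and 44.2 to 54.4 CPM in G-MDSCs (log2 fold change −1.85 ± 0.17, FDR = 7.59e-07), as was *Ifi30*, a lysosomal reductase (log2 fold change −3.51 ± 0.23, FDR = 2.04e-08). In the class I list 8 of 18 were lower and 1, *H2-D1*, was higher (log2 fold change 1.25 ± 0.27, FDR = 0.00149), with 2 higher under the mouse block. *B2m*, the light chain of class I, had 3924 to 5541 CPM in M-MDSCs and 4552 to 5069 CPM in G-MDSCs (FDR = 0.562).

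B cell markers were higher in G-MDSCs for 10 of 11 tested, or for 3 with library size alone, and their summed level was 204 to 368 CPM in M-MDSCs and 558 to 691 CPM in G-MDSCs. *Ms4a1*, which encodes CD20, had 16.1, 27.5, 15.3 and 9.14 CPM in the M-MDSC libraries and 28.4, 50.7, 41.6 and 29.2 CPM in the G-MDSC libraries (log2 fold change 1.15 ± 0.32, FDR = 0.00749). T cell markers summed to 106 to 223 CPM in M-MDSCs and 221 to 319.6 CPM in G-MDSCs, with 3 of 11 higher (5 with the mouse as a block and 0 with library size alone) and *Cd3d* at 19.5 to 57.6 CPM in M-MDSCs and 61 to 92.5 CPM in G-MDSCs (log2 fold change 1.11 ± 0.28, FDR = 0.00382). Class II genes are expressed by B cells as well, and the part of other cells in their values was not tested.

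Red pulp macrophage markers were higher for 8 of 13, with a summed level of 356 to 529.8 CPM in M-MDSCs and 1091 to 1391 CPM in G-MDSCs, but with library size alone the calls were 1 higher and 2 lower. *C1qa*, a complement chain, had 35, 48.1, 36.2 and 44.3 CPM in the M-MDSC libraries and 83.1, 92.3, 74.8 and 107 CPM in the G-MDSC libraries (log2 fold change 1.13 ± 0.18, FDR = 0.000143). *Slc40a1*, the iron exporter ferroportin, had 30.7, 22.1, 8.29 and 23.3 CPM in the M-MDSC libraries and 688, 634, 527 and 513 CPM in the G-MDSC libraries (log2 fold change 4.79 ± 0.32, FDR = 2.09e-08), which made up much of the sum in G-MDSCs and little of it in M-MDSCs. Of 5 eosinophil markers tested 1 was higher and 2 lower, with a median log2 fold change of −1.79 and a summed level of 67.6 to 133 CPM in M-MDSCs and 62.9 to 70.5 CPM in G-MDSCs. The higher one was *Siglecf*, an antigen of eosinophils, at 0.872 to 3.57 CPM in M-MDSCs and 22.6 to 30.7 CPM in G-MDSCs (log2 fold change 3.52 ± 0.36, FDR = 1.63e-06). The lower ones were *Prg2*, major basic protein (log2 fold change −2.75 ± 0.70, FDR = 0.00445), and *Adgre4*, an adhesion receptor (log2 fold change −3.11 ± 0.62, FDR = 0.000737), and *Epx*, eosinophil peroxidase, had at most 1 count in a library.

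Of 7 conventional dendritic cell markers 4 were higher (*Itgax*, *Ccr7*, *Wdfy4* and *Cd24a*) and 3 lower (*Flt3*, *Clec10a* and *Naaa*), or 2 higher and 3 lower with library size alone. Their median log2 fold change was 0.72, and they summed to 462 to 494 CPM in M-MDSCs and 1076 to 1174 CPM in G-MDSCs. *Itgax*, which encodes CD11c, had a log2 fold change of 2.70 ± 0.23, and *Flt3*, a receptor of dendritic cells and progenitors, one of −4.05 ± 0.70. Of 5 plasma cell markers tested 1 was higher and 2 lower, or 0 higher and 4 lower with library size alone. *Jchain*, of plasma cells, was lower, at 171, 268, 279 and 162 CPM in the M-MDSC libraries and 47.9, 48.5, 49.5 and 59.2 CPM in the G-MDSC libraries (log2 fold change −2.1 ± 0.21, FDR = 1.17e-06). Of 9 NK cell markers 2 were lower, the receptor *Klrk1* and granzyme A (*Gzma*), and the rest were not called. With upper-quartile scaling 3 were lower, and with library size alone 7. The call of *Klrk1* did not pass without M-MDSC replicate 4 (FDR = 0.0665). Erythroid markers were higher for 2 of 6, carbonic anhydrase 2 (*Car2*) and the transferrin receptor (*Tfrc*), and with the mouse as a block for 4, *Alas2* and *Slc4a1* being the others. *Slc4a1*, the band 3 anion exchanger of red cells, had 9.9, 9.09, 67.2 and 10.5 CPM in the M-MDSC libraries and 17.2, 8.86, 121 and 20.5 CPM in the G-MDSC libraries, so that mouse 3 stood above the others in both subsets, and its log2 fold change moved from 0.82 ± 0.77 to −0.59 without G-MDSC replicate 3 and to 2.09 without M-MDSC replicate 3. Of 8 markers of the B16 melanoma 5, among them *Tyr*, *Dct* and *Mlana*, had no count in any of the 8 libraries. The list summed to 25.1 to 38.4 CPM in M-MDSCs and 32.4 to 43 CPM in G-MDSCs. The 1 member that was tested was not called (log2 fold change 0.38).

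The difference between the subsets was close to that of WT mice. Over 9503 genes tested in both genotypes, the log2 fold changes correlated at r = 0.95, a description across genes, which are not independent of each other. Of 4948 DEGs of *Nlrp3*-/- mice 83.9% were DEGs in WT mice, and of 5107 DEGs of WT mice 81.3% were DEGs in *Nlrp3*-/- mice. In 4152 of the 4153 shared DEGs the direction was the same. The exception was *Inpp5j*, a phosphoinositide phosphatase that was named after its values were seen, with −1.39 in *Nlrp3*-/- and 1.22 in WT mice, whose difference between genotypes did not pass (FDR = 0.79) and whose call in *Nlrp3*-/- mice was lost with the mouse as a block (FDR = 0.085).

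The difference of the differences was tested over 10696 genes in a model of all 16 libraries. The WT libraries held 2295967 to 5933395 counts and had 13.4% to 25.9% of them in the 45S pre-rRNA symbol, above most *Nlrp3*-/- libraries, and 3 genes were also called without that symbol. With it, the difference was called for 2 genes in which the log2 fold change was higher in *Nlrp3*-/- mice (0.0187%) and for 1 in which it was lower (0.00935%), while 480 genes had an unadjusted p below 0.05. *Gdpd3* (chr7:126766334-126775649), a lysophospholipase D, had 348, 317, 371 and 346 CPM in M-MDSCs and 1934, 1781, 1447 and 1979 CPM in G-MDSCs of *Nlrp3*-/- mice, and 45.2, 37.7, 44.4 and 51.7 CPM in M-MDSCs and 77.1, 48.4, 52.6 and 61.9 CPM in G-MDSCs of WT mice, all scaled over the 16 libraries (difference of log2 fold changes 1.94 ± 0.24, FDR = 0.000933). Both subsets of *Nlrp3*-/- mice lay above both subsets of WT mice. *Pisd-ps1* (chr11:3125904-3131004), a transcribed pseudogene of phosphatidylserine decarboxylase whose reads can be shared with its parent gene, had 4.77, 11.4, 6.47 and 4.75 CPM in M-MDSCs and 144, 163, 135 and 178 CPM in G-MDSCs of *Nlrp3*-/- mice, and 10.4, 8.58, 11.1 and 9.59 CPM in M-MDSCs and 60.8, 45.4, 52.6 and 55.3 CPM in G-MDSCs of WT mice (2.09 ± 0.32, FDR = 0.0103).

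*Adgrg5* (chr8:94923694-94943280), an adhesion G protein-coupled receptor, was the gene whose log2 fold change was lower in *Nlrp3*-/- mice, at 88.2, 90.9, 63.1 and 80.5 CPM in M-MDSCs and 4.85, 2.22, 0.829 and 4.46 CPM in G-MDSCs of *Nlrp3*-/- mice, and 3.53, 5.91, 5.35 and 4.45 CPM in M-MDSCs and 2.67, 1.02, 3.63 and 1.95 CPM in G-MDSCs of WT mice (−3.71 ± 0.57, FDR = 0.0103). It was high in the M-MDSC libraries of *Nlrp3*-/- mice alone, and the other 12 libraries lay below 6 CPM. All 3 genes also passed with the mouse as a block (FDR = 0.000231, 0.00218 and 0.0042), which called 4 genes in all. With 1 library left out, the call of *Pisd-ps1* was lost without *Nlrp3*-/- M-MDSC replicate 1 (FDR = 0.0616) and that of *Adgrg5* without WT G-MDSC replicate 3 (FDR = 0.192).

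Among the 1274 tested genes of the 60 lists, edgeR called 0 for the difference between genotypes, with 91 at an unadjusted p below 0.05, and DESeq2 called 2, among them *Hpgd*, a prostaglandin dehydrogenase. For *Il1b* the difference between genotypes was 1.25 ± 0.37, FDR = 0.844, and for *Nlrp3* 1.11 ± 0.48, FDR = 0.992.

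**Figure D5:**
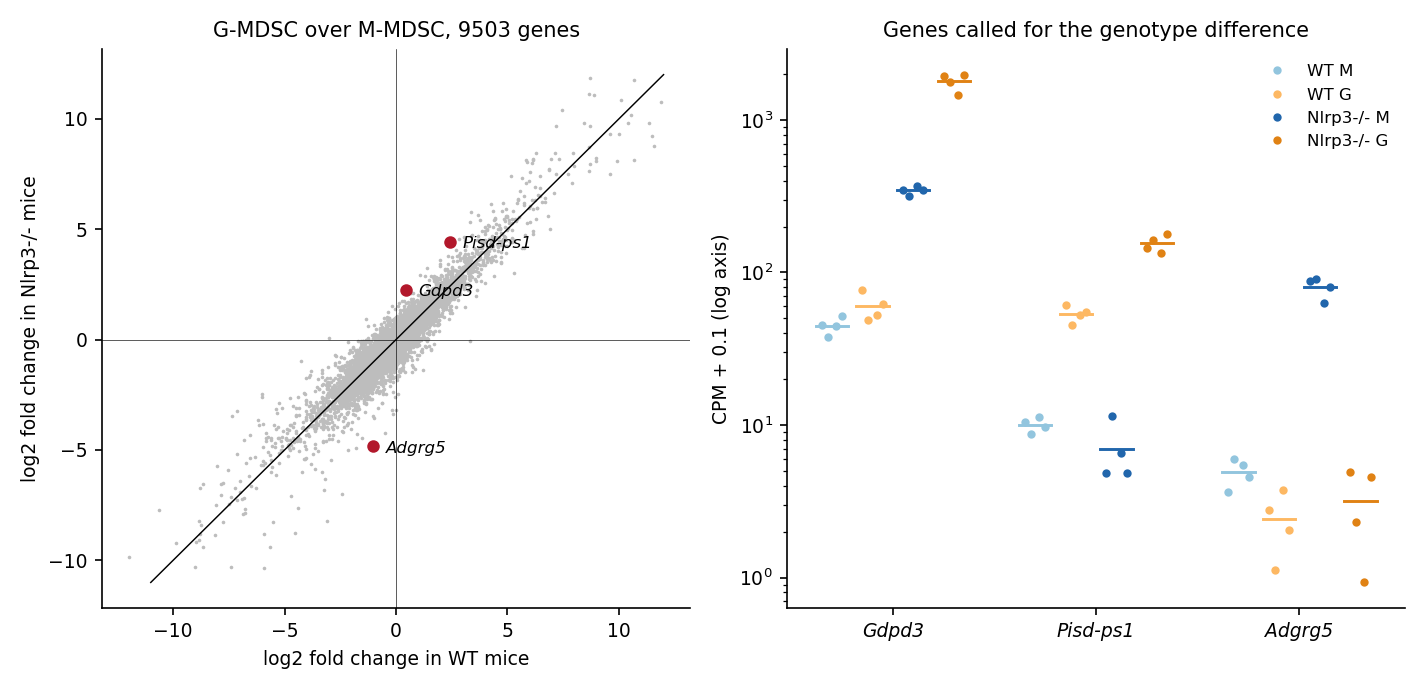
Left, log2 fold change of G-MDSCs over M-MDSCs in *Nlrp3*-/- mice against that in WT mice for the 9503 genes tested in both (r = 0.95), with the line of equality and the 3 genes called for the difference in red. Right, levels of those genes in each of the 16 libraries (CPM + 0.1 on a log axis): *Adgrg5* is at 63.1 to 90.9 CPM in *Nlrp3*-/- M-MDSCs and below 6 CPM elsewhere, and *Gdpd3* at 1447 to 1979 CPM in *Nlrp3*-/- G-MDSCs.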

How the data were processed

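RNA of sorted splenic MDSCs of both subsets was made into QuantSeq 3′ libraries, which were sequenced as single-end reads. Per the study's methods and the submitters' notes, reads were mapped to mm10 with HISAT2 2.1.0 and counted per gene symbol by strand with HTSeq, and edgeR 3.14.0 was used for the comparisons. The deposited files, used here as the authors made them, hold raw counts, 1 library each, for 24421 symbols. Of these 24046 were matched to the GENCODE M21 annotation of GRCm38, the same build as mm10.

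Counts were filtered with filterByExpr, scaled by TMM and tested in edgeR 4.0.16 (R 4.3.3) with the quasi-likelihood test, over the 8 *Nlrp3*-/- libraries. A call needed an FDR (Benjamini-Hochberg, over all genes tested) below 0.05 and a fold change above 1.5, as in the study. Standard errors are the log2 fold change divided by the root of F. The difference between genotypes was tested as an interaction over all 16 libraries. The tests were checked on simulated data with known changes. Ratios on few counts carry exact 95% intervals, and a floor is 3 counts, both of which cover counting error only. No 2 libraries agreed within sampling noise.

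Both subsets of a number came from 1 mouse by the labels. Their deviations from the subset means correlated at 0.39, 0.0072, 0.3 and 0.066 in mice 1 to 4, and 2 of 4 G-MDSC libraries correlated best with their own mouse. As the study named no block, the mouse was a block in an alternative. The other alternatives were DESeq2 1.42.0, its size factors, library size or the upper quartile as scaling, no filter or 5 CPM in 4 libraries, no fold minimum, all 16 libraries in the fit, offsets for GC content and length, and 1 library left out. Leaving out both libraries of a mouse, or the 45S pre-rRNA symbol, was added after the data were seen.

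The comparison and the 60 gene lists were chosen with earlier results of these data known. Named genes were key members fixed for the lists, the largest fold changes (12 in each direction, without overlap and with at least 100 CPM in the higher subset), and genes called between genotypes, and some members are not reported here. Chosen after their values were seen were *Adgre4*, *Anxa1*, *Aqp1*, *Atp6v0c*, *Btg2*, *Car2*, *Cd300lf*, *Ccr7*, *Cd24a*, *Cd63*, *Cdkn1a*, *Cdkn2d*, *Chil3*, *Clec10a*, *Cmklr1*, *Cxcr1*, *Cysltr1*, *Egr1*, *Emb*, *Eno1*, *Gdf15*, *Hbb-bs*, *Hcar2*, *Hemgn*, *Hpgd*, *Ifi203*, *Ifi30*, *Ifitm1*, *Ikbkb*, *Il6st*, *Inpp5j*, *Jchain*, *Klf2*, *Klrk1*, *Lcp1*, *Lpl*, *Lyz1*, *Lyz2*, *Mx1*, *Naaa*, *Naip5*, *Naip6*, *Ndufs5*, *Nfkbid*, *Npc2*, *Nr4a2*, *P2rx7*, *Panx1*, *Plac8*, *Prdx1*, *Prss57*, *Ptgir*, *Rpl26*, *Rps27*, *S100a11*, *Slc16a3*, *Slc40a1*, *Slc4a1*, *Slfn4*, *Taldo1*, *Tfrc*, *Tlr6*, *Trem2*, *Txnip* and *Wdfy4*.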

Additional observations from a re-analysis of the deposited data

Results flagged for a closer look

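For 33 of 494 sets of 4 libraries of a subset (6.68%), over the genes named, the highest or lowest library stood apart from the other 3 by Dixon's test, which chance does in about 1 in 20 sets.

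Among G-MDSCs the library of mouse 1 was the highest in 8 of them. It had 407 CPM of *Cd63*, 1.16 of *Cysltr1*, 89.4 of *Klf5*, 2.09 of *Ldlrad3*, 122 of *Lta4h*, 1150.1 of *Lyz2*, 183 of *Nlrp12* and 1208 of *Slfn4*. The library of mouse 4 was the highest for *Clec4e* (955 CPM), *Ctsd* (2762), *Gzma* (71.5), *Il1r2* (4934) and *Jchain* (59.2), that of mouse 2 for *Panx1* (10.8) and that of mouse 3 for *Slc4a1* (121). The library of mouse 3 was the lowest for *Alox5ap* (2145 CPM) and *Egr1* (1425).

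On the scale set over the 8 *Nlrp3*-/- libraries, the library of mouse 3 among M-MDSCs was the highest for *Alas2* (50.4 CPM), *Cd84* (180.3), *Cybb* (2666), *Fcgr1* (102), *Il6st* (55.6), *Prss57* (2.62) and *Slc4a1* (67.2). The library of mouse 1 was the highest for *Btg2* (217 CPM), *Cxcl2* (176) and *Fos* (518) and the lowest for *B2m* (3924) and *Il4ra* (67.2). The library of mouse 2 was the lowest for *Alox5ap* (842 CPM), *Gabarap* (150.1) and *Gdpd3* (331), and that of mouse 4 the highest for *Cxcr1* (0.703).

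Between genotypes the log2 fold change of G-MDSCs over M-MDSCs differed by 1.94 for *Gdpd3*, 2.09 for *Pisd-ps1* and −3.71 for *Adgrg5*, in edgeR's test of the difference itself.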

How the results depend on the processing

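DEGs numbered 4779 to 6180 under the other choices of test, scaling and filter, against 5141, and 4398 to 5106 with 1 library or 1 mouse left out. Those of at least 4-fold numbered 1313 to 2254 against 1586. With the mouse as a block, the pairing that the labels give, 5397 genes were called, 1675 of at least 4-fold and 4 for the difference between genotypes. The block ended the call of *Inpp5j* and added those of *Cd14*, *Lta4h*, *Alas2* and *Slc4a1*, and it changed no other call among the genes named. With a correction for GC content and length it called 5331. The difference between genotypes was called for 8 genes by DESeq2, for 5 with no filter on low counts, and for 2 to 5 with 1 library left out.

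With library size as the only scaling, the median log2 fold change moved by −0.71, and −0.16 with the upper quartile. The summed B cell, T cell and red pulp macrophage markers, G-MDSC over M-MDSC, were then 1.48, 1.13 and 1.54, against 2.48, 1.89 and 2.65. They were 2.34 to 2.62, 1.78 to 2.0 and 2.59 to 2.71 with 1 library left out. The log2 fold change turned in sign for *Aim2* (−0.46), *Cd14* (−0.18), *Cyba* (−0.46), *Gsdmd* (−0.37) and *Irf7* (−0.32). *Gsdmd* and *Cyba* then had an FDR below 0.05 with a fold change under the minimum.

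Other genes that turned in sign had not been called. *H2-Aa* was at 0.03 in the fit of all 16 libraries, at 0.07, 0.0 and 0.09 without G-MDSC replicate 1 or 2 or M-MDSC replicate 4, and at −0.23 to 0.09 over all left out. *Mki67* was at 0.0 with all 16 libraries, 0.14 and 0.15 without G-MDSC replicate 2 or 4, 0.26 without M-MDSC replicate 3 and 0.07 without mouse 2 (−0.72 to 0.26 over all left out). *Nr4a1* was at 1.0 without M-MDSC replicate 1 (−1.36 to 1.0), and *Slc4a1* at −0.59 without G-MDSC replicate 3 (−0.59 to 2.09). Of 226 genes named that were called, 0 turned in sign in any of these alternatives and 18 lost the call in at least 1, 13 of them only with library size. The other 5 were *Il18*, *Inpp5j*, *Klrk1*, *Wdfy4* (with the upper quartile too) and *Gzma*, the last with all 16 libraries (FDR = 0.0839) and without mouse 2 (FDR = 0.0923). The cause of these changes was not tested.

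With 4 mice and 3639044 to 6079866 counts, a gene at 0 in a library can have been at up to 3 counts, or 0.384 to 0.767 CPM on the TMM scale of the levels. The files hold 1 sort per mouse and no measure of purity, and levels of a bulk sort mix all cells in the gate.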

Other observations

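Levels of 1 mouse that stood apart in both subsets were counted after the data were seen. Over 7345 genes with a mean of at least 5 CPM in both subsets, 50 were above 2 times every other library of the same subset in both libraries of mouse 1, 0 in those of mouse 2, 4 in those of mouse 3 and 1 in those of mouse 4. The genes of mouse 1 included *Gsr*, glutathione reductase, with 353, 45.3, 27.5 and 113 CPM in the M-MDSC libraries and 1103, 516, 248 and 267 CPM in the G-MDSC libraries. *Pfn1*, profilin, had 66.6, 1.07, 0.872 and 3.94 CPM in the M-MDSC libraries and 139, 14.8, 3.85 and 5.38 CPM in the G-MDSC libraries, and *Anxa1*, annexin A1, had 121, 20.5, 10.7 and 39.1 CPM in the M-MDSC libraries and 422, 169, 113 and 122 CPM in the G-MDSC libraries. *Nr4a1*, *Cxcl2*, *Lyz2* and *Lta4h* were among them as well. The 4 genes of mouse 3 were *Alas2*, *Aqp1*, *Hemgn* and *Slc4a1*, which erythroid cells express, and the gene of mouse 4 was *Gdf15*, with 3.86, 5.53, 4.14 and 12.5 CPM in the M-MDSC libraries and 7.68, 9.35, 7.3 and 24.6 CPM in the G-MDSC libraries.

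Some symbols of abundant transcripts were at or near 0 in all 8 libraries. *Gapdh* had 0 to 5 counts in a library, *Rps27* at most 1, and *Eno1*, *Rpl26*, *Ndufs5* and *Atp6v0c* had 0, as did the globin genes *Hba-a1* and *Hbb-bs*. Levels of these genes were therefore not read from the files.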
